A study of Mus musculus with 8 samples.

Results

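Repeated exposure to LPS was examined here in the liver of ApoE-Cyp7a1 transgenic mice, by setting 2 livers of transgenic mice given LPS against 2 livers of untreated transgenic mice. These are 4 of the 8 libraries of the study, chosen by their labels. The other 4 are the same pair of conditions in wild-type mice, and they serve as a comparison. All mice were male C57Bl/6J. LPS is lipopolysaccharide, the endotoxin of Gram-negative bacteria, and was injected daily at 1.5 mg/kg for 7 days. All 4 transgenic libraries carry the Cyp7a1 transgene, so the contrast is LPS on a transgenic background. The transgene is described as liver specific, and the genotype label joins its name with ApoE. The labels state no age, no handling of the untreated mice and no time from the last injection to the liver collection. The livers are described as biological replicates. Whether a library is 1 mouse or a pool is not stated. P-values weigh a change against the spread between libraries within groups, which is pooled over all 8 libraries.

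LPS is sensed by Toll-like receptor 4 with CD14 on Kupffer cells, the resident macrophages of the liver, and on other cells. These release cytokines such as IL-1 and IL-6, to which hepatocytes respond with the acute phase response, a large rise of secreted defence proteins including the serum amyloid A proteins. In inflamed liver the genes of bile acid transport, drug metabolism and fatty acid oxidation are commonly lowered. Repeated exposure also leads to tolerance, a state in which cytokine release to a further dose is damped. Cyp7a1 encodes cholesterol 7-alpha-hydroxylase, the rate-limiting enzyme of classical bile acid synthesis, which draws on the cholesterol of the hepatocyte.

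Values are FPKM, a fragment density per transcript length and per mapped fragments, and are printed in the order untreated 1, untreated 2, LPS 1 and LPS 2 unless stated. A change is a difference of log2(FPKM + 1), a scale that understates the change of genes near or below 1 FPKM. Cyp7a1, the gene carried by the transgene, read 64.7, 78.5, 73.5 and 70.2 FPKM in transgenic liver and 19.9 to 49.2 FPKM in the 4 wild-type libraries. All 4 transgenic libraries stood above all 4 wild-type libraries, and the LPS change within transgenic liver was 0.01 (SE 0.31, limma adjusted p = 0.984). FPKM summed over the table to 525199.9 and 500765.4 in the untreated and to 406668.1 and 457778.5 in the LPS transgenic libraries. Hepatocyte markers summed to 43440 to 49530 FPKM in all 4. Genes of the exocrine pancreas, an organ that lies beside the liver, summed to 7050 and 1452 FPKM in the untreated libraries and to 187.6 and 26.5 in the LPS libraries. In a whole liver, fewer cells of a type and less RNA per cell cannot be told apart.

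The 2 LPS livers differed from each other. Across the 11105 features tested, the SD of the difference between replicates was 0.46 in the LPS pair and 0.31 in the untreated transgenic pair, against 0.21 and 0.47 in the wild-type LPS and untreated pairs. At least a 2-fold difference between the 2 LPS livers was seen for 409 features, 181 higher in LPS 1 (1.63% of those tested) and 228 lower (2.05%). Relative to the untreated mean, 1191 features were at least 2-fold higher in LPS 1 and 899 in LPS 2. They had 819 in common, which is 68.8% of the first set and 91.1% of the second. On the lower side the counts were 724 and 225 with 182 in common, 25.1% of the LPS 1 set and 80.9% of the LPS 2 set. No feature was 2-fold higher in LPS 1 and 2-fold lower in LPS 2, and 4 were the reverse, Rgs16, Thrsp and Snora31 among them. Among tested features the livers thus shared most of the rises, and most of the falls of this size belonged to LPS 1. The sharing of rises is partly set by the filter, which asked for 1 FPKM in at least 2 of the 4 transgenic libraries. For 654 features below 1 FPKM in both untreated libraries, both LPS libraries had to reach it. Such a feature was not tested if it rose in only 1 LPS liver.

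**Figure D1:**
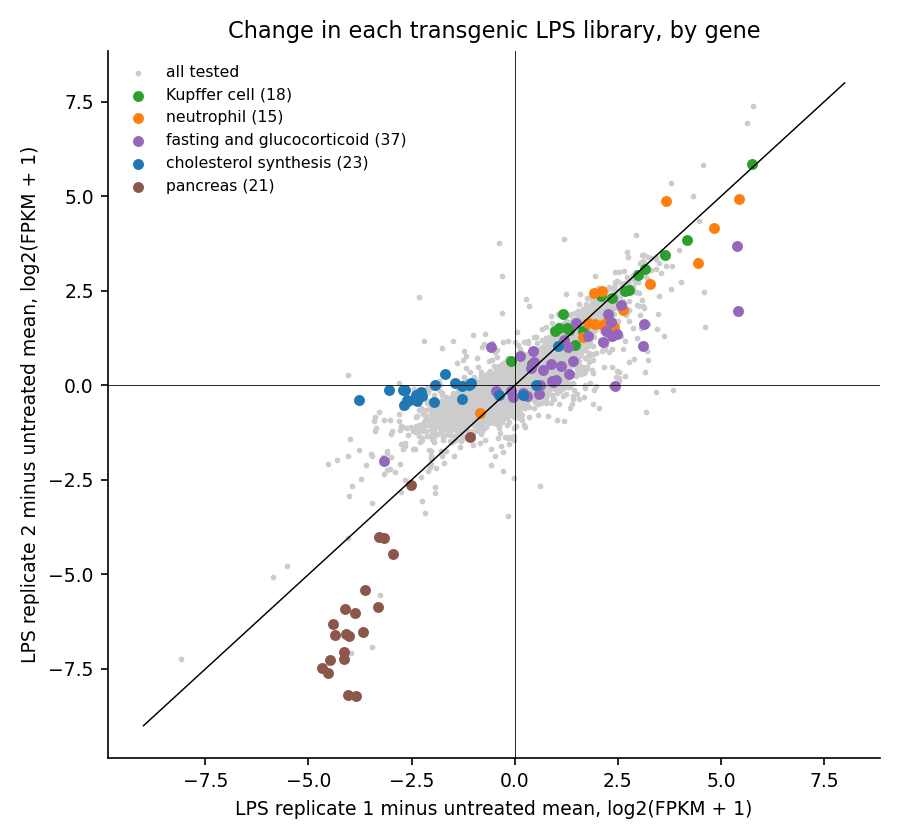
Change of each tested feature in LPS replicate 1 (x axis) and LPS replicate 2 (y axis) against the mean of the 2 untreated transgenic libraries, in log2(FPKM + 1). Each point is a gene, the diagonal marks equal change, and colours mark 5 gene lists with the number tested. Kupffer cell and neutrophil genes lie near the diagonal on the upper right, cholesterol synthesis genes lie left of 0 at little change in LPS 2, and pancreas genes lie farthest down in LPS 2.

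A feature was tested if 2 or more of the 4 transgenic libraries reached 1 FPKM. Of the 11105 such features 2977 (26.8%) passed at an adjusted p under 0.05 in limma, 1754 higher (15.8%) and 1223 lower (11%) after LPS. A change of at least 2-fold was seen in 979 of the higher and 351 of the lower features. Both LPS libraries were above both untreated libraries for 31.1% of all features tested and below both for 37.0%, and the median change of all features was −0.05. The filter let 654 features through only because they reached 1 FPKM in the LPS libraries, so they had to be higher there. Among the other 10451 features, 1169 (11.2%) rose and 1223 (11.7%) fell. They still hold 108 that reached 1 FPKM only in the untreated libraries and so had to be lower after LPS. Each LPS liver weighed heavily on these counts. Without LPS 1, 625 rose and 268 fell, and without LPS 2, 1160 rose and 1434 fell. Without untreated 1, 1289 rose and 243 fell, and without untreated 2, 1064 and 246. Leaving out either wild-type LPS library, which enters only through the shared spread, left 645 or 643 that fell. When each library was scaled to the same total, 2202 rose and 648 fell and the median change of all features moved to 0.15, so small falls depend on the scaling.

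Saa2 and Saa3, of the serum amyloid A family, had the largest rises among all features that passed. Saa1 and Saa2 encode the acute phase forms secreted by hepatocytes, and Saa3 is the form also made by macrophages. The 3 genes lie together on chromosome 7 (GRCm38, GENCODE vM21), Saa3 at 46711998-46715700, Saa1 at 46740497-46742980 and Saa2 at 46751790-46754313. Their promoters are printed because these 3 neighbours rose together by large amounts. Each line holds the 250 bases before the RefSeq start on the strand of the gene (RefSeq, GRCm38.p6), Saa1 at chr7:46742981-46743230 on the minus strand, Saa2 at chr7:46751583-46751832 on the plus strand and Saa3 at chr7:46715677-46715926 on the minus strand. Capitals mark matches to TTNNGCAA, read on both strands, a core of the sites bound by C/EBP factors.
Saa1: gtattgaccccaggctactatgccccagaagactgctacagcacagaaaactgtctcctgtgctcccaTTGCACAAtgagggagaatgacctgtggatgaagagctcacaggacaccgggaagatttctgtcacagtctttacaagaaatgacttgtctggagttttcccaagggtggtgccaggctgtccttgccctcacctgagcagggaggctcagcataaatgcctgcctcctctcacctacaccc
Saa2: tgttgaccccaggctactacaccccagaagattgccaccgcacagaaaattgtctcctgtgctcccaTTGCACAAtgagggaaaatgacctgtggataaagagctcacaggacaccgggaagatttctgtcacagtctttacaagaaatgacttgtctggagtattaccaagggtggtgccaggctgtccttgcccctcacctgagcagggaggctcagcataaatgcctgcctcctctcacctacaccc
Saa3: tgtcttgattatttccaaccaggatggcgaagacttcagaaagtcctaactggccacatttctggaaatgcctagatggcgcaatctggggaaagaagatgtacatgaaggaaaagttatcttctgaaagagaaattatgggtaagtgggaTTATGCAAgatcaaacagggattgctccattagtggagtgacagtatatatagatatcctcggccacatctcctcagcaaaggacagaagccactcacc
The match begins 182 bases before the start in Saa1, 183 in Saa2 and 99 in Saa3. Lcn2 had one as well, so 4 of 4 of these acute phase genes held the motif, against 3142 of 32851 promoter windows of that length (9.56%). A gene counted if any of its windows matched, while the share of all windows counts each window, so the measures differ. An NF-kB type motif in a strict form, searched on both strands, had no match in the 4 windows and was present in 1.41% of all windows. Looser forms of this motif were not searched, so the lack of a match does not show that such sites are absent from these windows. The motifs were chosen with the sequences in view, and a match is a description of the letters only. The Saa1 and Saa2 windows were identical at 238 of 251 aligned positions (94.8%). Their coding transcripts were identical at 572 of 655 (87.3%), so reads may be divided between the 2 genes and their separate levels are uncertain.

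Saa2 read 43.4, 23.8, 1830 and 5594 FPKM. Saa1 read 108, 86.5, 2308 and 5512 FPKM. Saa3 read 25.2, 9.84, 835 and 2060 FPKM. For all 3 the LPS livers stood far above the untreated livers, and LPS 2 was more than 2-fold above LPS 1. The changes were 6.59 for Saa2 (SE 0.73, limma adjusted p = 0.00069), 5.19 for Saa1 (SE 0.52, adjusted p = 0.000467) and 6.28 for Saa3 (SE 0.70, adjusted p = 0.000687). Lcn2, the iron-sequestering protein lipocalin 2, read 62.9, 18.8, 452 and 1050 FPKM and rose by 4.28 (SE 0.59, adjusted p = 0.00179), again highest in LPS 2. Hpx, the haem carrier hemopexin, rose from 2165 and 1856 to 5640 and 6797 FPKM (change 1.63, SE 0.23, adjusted p = 0.00194). Serpina3n, a protease inhibitor, read 279, 268, 507 and 986 FPKM and rose by 1.37 (SE 0.29, adjusted p = 0.0123). Its change was 1.39 without untreated 1 and 1.34 without untreated 2, and passed in neither.

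Not every acute phase gene followed. Of 24 tested genes of positive acute phase proteins, 9 rose and 1 fell, with a median change of 0.72 beside −0.05 for all features. The filter admitted 1 of the 24 only through LPS, and 8 of the other 23 rose, with a median of 0.54. Without either untreated library 6 rose. The gene that fell was Saa4, the constitutive member of the serum amyloid A family, at 70.4, 70.8, 9.93 and 32.3 FPKM (change −1.91, SE 0.47, adjusted p = 0.0214). LPS 1 was the lower of the pair, and without it the change was −1.10 and did not pass, nor did it without either untreated library. Hamp, which encodes the iron hormone hepcidin, read 265, 189, 2098 and 357 FPKM, highest by far in LPS 1, and its change of 1.95 (SE 0.76) had an adjusted p of 0.0984.

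Genes for LPS sensing and tolerance rose in part. Cd14, the LPS co-receptor, read 3.93, 2.63, 46.7 and 20.8 FPKM and rose by 2.93 (SE 0.41, limma adjusted p = 0.00197). Aoah, the lipase that inactivates LPS by removing acyl chains, read 0.414, 0.320, 12.6 and 13.2 FPKM and rose by 3.35 (SE 0.15, adjusted p = 0.000143), with nearly equal levels in the LPS pair. Irak3, a kinase-like inhibitor of Toll-like receptor signalling linked with tolerance, read 0.371, 0.338, 5.31 and 4.82 FPKM and rose by 2.16 (SE 0.16, adjusted p = 0.00026). Ly86, the partner of the receptor homologue RP105, rose from 4.08 and 3.07 to 26.4 and 24.4 FPKM (change 2.54, SE 0.16). Of 29 tested genes for LPS sensing and tolerance, 12 rose and 1, the adaptor Tirap, fell, with a median of 0.44. Of these, 6 passed the filter only through LPS, Aoah and Irak3 among them, so these had to be higher there. Of the other 23, 6 rose. Without LPS 1 4 of 23 rose, and without LPS 2 6 of 23.

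Csf1r and Csf3r, cytokine receptors of myeloid cells, rose. Csf1r, the receptor for macrophage colony-stimulating factor, read 16.1, 11.2, 110.2 and 115 FPKM (change 2.98, SE 0.30, limma adjusted p = 0.000469). Csf3r, the granulocyte colony-stimulating factor receptor, read 0.965, 0.561, 5.05 and 4.50 FPKM (change 1.72, SE 0.15, adjusted p = 0.000319). Il1b, the cytokine interleukin 1 beta, read 2.45, 0.808, 9.43 and 4.70 FPKM and rose by 1.63 (SE 0.41, adjusted p = 0.0233). Both LPS livers were above both untreated livers, but the call did not hold without LPS 1 (change 1.19) or without untreated 2 (change 1.16). In the list of IL-1, IL-6 and TNF family genes, their receptors and inflammasome genes, 18 of 25 rose and 1, Il1rap, fell, with a median of 1.07. Of these 25, 4 passed the filter only through LPS, Csf3r among them, and 14 of the other 21 rose. Without LPS 1 6 of 21 rose, without LPS 2 11 of 21, and without untreated 2 10 of 25.

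Among chemokines the B cell attractant Cxcl13 read 4.77, 2.202, 85.1 and 138 FPKM and rose by 4.67 (SE 0.55, limma adjusted p = 0.000886). Ccl5, a T cell and monocyte attractant, read 3.98, 0.925, 19.7 and 31.8 FPKM and rose by 3.07 (SE 0.44, adjusted p = 0.00213). The platelet chemokines Ppbp and Pf4 rose by 2.72 (SE 0.26) and 2.34 (SE 0.37), with Ppbp admitted only through LPS. Of 21 tested chemokine and chemokine receptor genes 12 rose and 1, Ccl25, fell. Of these, 6 passed the filter only through LPS, and 6 of the other 15 rose. Without LPS 1 the counts were 6 higher and 1 lower of 15, and without LPS 2 7 and 3. Interferon-stimulated genes went both ways, with 7 of 34 higher and 7 lower, beside 15.8% and 11% of all features. Their median was −0.11, or 0.09 with libraries scaled to the same total. The filter admitted 2 of the 34 only through LPS, and of the other 32, 5 rose and 7 fell. Without LPS 1 2 of 31 rose and 5 fell. The transcription factor Irf8 rose from 2.88 and 1.71 to 10.97 and 9.997 FPKM (change 1.82, SE 0.24), while Iigp1, an interferon-inducible GTPase, read 138, 144, 35.6 and 85.6 FPKM (change −1.34, SE 0.36, adjusted p = 0.0312), a call lost without LPS 1 (change −0.72) and without either untreated or either wild-type LPS library.

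Markers of macrophages rose together and to like levels in both LPS livers. Marco, a scavenger receptor of Kupffer cells, read 8.17, 3.52, 349 and 372 FPKM and rose by 5.81 (SE 0.60, limma adjusted p = 0.000532). Emr1, the F4/80 antigen, read 5.97, 3.86, 104 and 82.1 FPKM and rose by 4.00 (SE 0.29, adjusted p = 0.00026). Spic, a transcription factor of iron-recycling macrophages, read 0.739, 0.594, 19.8 and 17.2 FPKM and rose by 3.55 (SE 0.16, adjusted p = 0.000143). It was admitted only through LPS, so it had to be higher there. Cd5l, a secreted macrophage protein, rose from 41.7 and 29.8 to 321 and 305 FPKM, and C1qb, a chain of complement C1q, from 39.8 and 23.5 to 214 and 179.7 FPKM. Of 18 Kupffer cell markers 17 rose, the exception being Clec4f, and their summed level went from 344.5 and 253 FPKM to 1738 and 1752. The median change was 1.89. Of the 18, 2 were admitted only through LPS and 15 of the other 16 rose, and the least count when leaving out 1 transgenic library was 12 of 18, without untreated 2.

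Other blood-borne cell types showed the same direction. Itgam, the integrin CD11b, read 0.695, 0.433, 12.7 and 15.9 FPKM and rose by 3.29 (SE 0.17, limma adjusted p = 0.000143). It was admitted only through LPS, so its direction was fixed by the filter. Of 18 markers of recruited monocytes 14 rose. With 6 of these 18 admitted only through LPS, 8 of the other 12 rose, and 7 of 12 without LPS 1. Among neutrophil genes S100a8, a subunit of calprotectin, read 2.19, 2.23, 137 and 96.2 FPKM and rose by 5.18 (SE 0.27, adjusted p = 0.000143). Its partner S100a9 read 4.18, 1.31, 97.0 and 60.5 FPKM (change 4.49, SE 0.40), and the granule protein Ngp read 0.0694, 0.0681, 22.3 and 9.06 FPKM (change 3.84, SE 0.38). Ngp was admitted only through LPS. In all, 14 of 15 tested neutrophil genes rose and 1, Itgb2l, fell, but 9 of the 15 were admitted only through LPS, and of the other 6, 5 rose. Lcn2, which hepatocytes also make, is in this list, and the summed level went from 78.4 and 30.1 to 776 and 1276 FPKM.

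B cell and plasma cell genes rose in 10 of 11 cases, 7 of the 11 admitted only through LPS. Of the other 4, 3 rose, or 2 without LPS 1. Igj, the joining chain of secreted antibodies, read 4.11, 0.672, 36.3 and 25.1 FPKM and rose by 3.42 (SE 0.47, limma adjusted p = 0.00178). Cd79b, part of the B cell receptor, rose from 1.19 and 0.769 to 5.18 and 4.58 FPKM (change 1.58, SE 0.18). Of 6 tested T and NK cell genes 4 rose (Gzma, Icos, Nkg7 and Klrd1), but 4 of the 6 were admitted only through LPS, and of the other 2, 1 rose. Without LPS 1 none of the 2 still tested did. Of 9 red cell genes 5 rose, among them Slc4a1, the band 3 anion exchanger, at 0.0677, 0.119, 6.24 and 7.03 FPKM (change 2.80, SE 0.24), and 1, the carbonic anhydrase Car1, fell. Only through LPS were 4 of the 9 admitted, Slc4a1 among them, and of the other 5, 1 rose and 1 fell, with a median of 0.09. Without LPS 1 1 of 5 red cell genes rose, and without LPS 2 likewise. In class II antigen presentation, Ctss, a protease that processes the invariant chain, rose by 2.24, and Cd74, H2-Aa, H2-Ab1 and H2-Eb1 did not pass. Of the 8 class II genes tested 4 rose, 3 of them among the 7 not admitted only through LPS, and 1 of 7 without LPS 1 or without LPS 2.

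**Figure D2:**
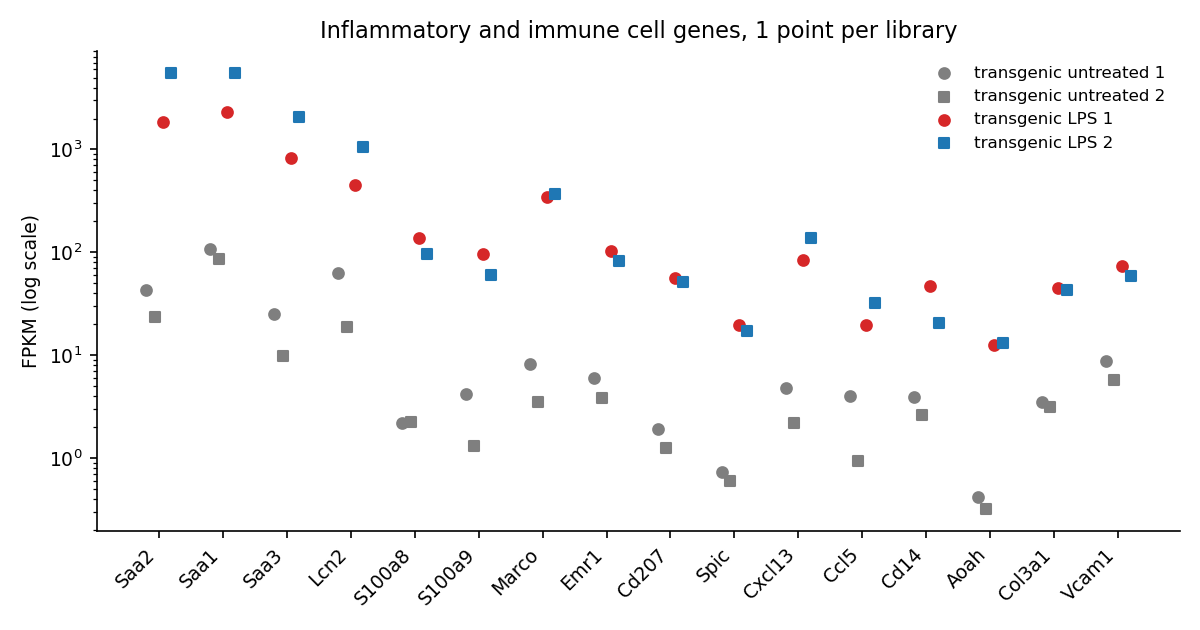
FPKM (log scale, y axis) of 16 inflammatory and immune cell genes (x axis) in each of the 4 transgenic libraries, 1 point per library. Both LPS livers lie above both untreated livers for every gene shown, which the filter fixed for Spic and Aoah, admitted only through LPS. LPS 2 is the higher of the pair for Saa2, Saa1, Saa3, Lcn2, Cxcl13 and Ccl5 and, by small margins, Marco and Aoah, and LPS 1 for S100a8, S100a9 and Cd14.

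Many matrix, vessel and cell cycle genes rose as well. Col1a1 and Col3a1, the chains of the fibrillar collagens I and III, read 1.67, 1.28, 27.9 and 18.4 FPKM and 3.48, 3.14, 45.4 and 43.0 FPKM. They rose by 3.26 (SE 0.33, limma adjusted p = 0.000469) and 3.39 (SE 0.32, adjusted p = 0.000402). Col4a1, a basement membrane collagen, rose by 2.14 (SE 0.20), and of 17 collagen genes tested 12 rose and none fell, with 9 that rose among the 14 not admitted only through LPS. Of 37 markers of stellate cells and matrix 33 rose and none fell, with a median of 1.15. Of the 37, 8 passed the filter only through LPS, and 25 of the other 29 rose. These included Vim (12.4, 11.7, 121 and 89.0 FPKM), an intermediate filament of mesenchymal cells, and Tagln (2.95, 2.28, 27.0 and 14.9 FPKM), an actin-binding protein of contractile cells. Without LPS 1 16 of 29 rose, without LPS 2 21 of 29 and without untreated 2 22 of 37. Dcn, Des, Ecm1 and Fn1 did not pass.

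The adhesion molecule Vcam1 read 8.85, 5.80, 73.6 and 58.7 FPKM and rose by 3.03 (SE 0.21, limma adjusted p = 0.000257). Lyve1, a hyaluronan receptor of liver sinusoidal endothelium, read 15.7, 16.0, 92.5 and 91.1 FPKM and rose by 2.46 (SE 0.14, adjusted p = 0.000143). Cdh5, the cadherin of endothelial junctions, rose from 7.85 and 6.69 to 26.8 and 27.0 FPKM (change 1.76, SE 0.15). Of 30 endothelial genes 21 rose and none fell, 20 of them among the 29 not admitted only through LPS. Without LPS 1 13 of 29 rose and without untreated 2 14 of 30. Of 30 cell cycle genes 20 rose, including Top2a (0.0839, 0.151, 3.09 and 2.096 FPKM) and Ccna2 (0.438, 0.596, 4.14 and 3.19 FPKM), which act in DNA untangling and in S and G2 phase. Top2a and Ccna2 were both admitted only through LPS, so they had to be higher there. All but 14 of the 30 were admitted only through LPS, and of those 14, 5 rose, or 4 without LPS 1 and 4 without LPS 2. Which cells carried these transcripts was not tested.

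**Figure D3:**
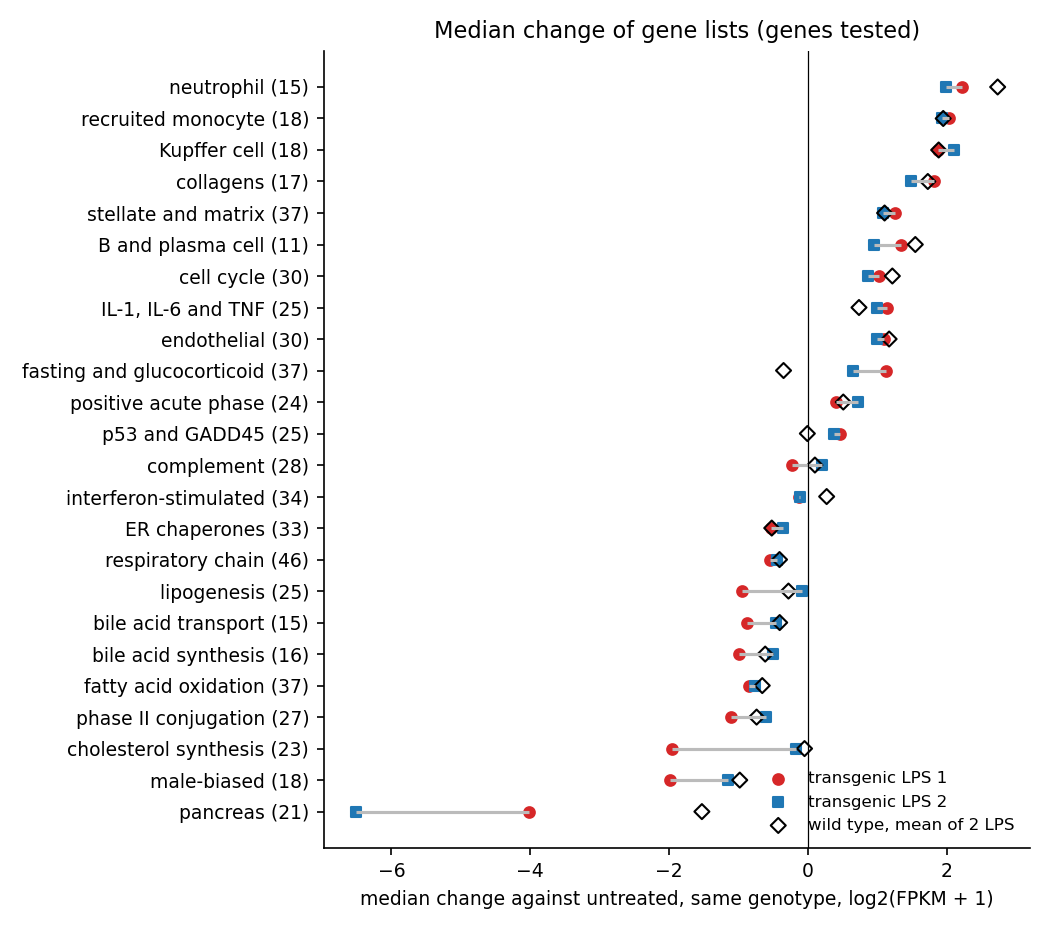
Median change of 24 gene lists (y axis, number of genes tested in brackets) against untreated liver of the same genotype, in log2(FPKM + 1) on the x axis. Red circles are transgenic LPS replicate 1, blue squares transgenic LPS replicate 2, and open diamonds the mean of the 2 wild-type LPS libraries. The red and blue points lie close together for the immune and matrix lists and far apart for cholesterol synthesis (−1.96 and −0.16) and pancreas (−4.02 and −6.51). The diamond lies on the other side of 0 from both for the fasting and glucocorticoid list, the interferon-stimulated list and, barely, the p53 and GADD45 list.

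Many genes of fatty acid oxidation fell. Fabp1, the liver fatty acid binding protein, read 7508, 6559, 875 and 1890 FPKM and fell by 2.45 (SE 0.38, limma adjusted p = 0.00322). Vnn1, a pantetheinase controlled by the fatty acid sensor PPAR-alpha, read 60.7, 71.6, 15.6 and 16.7 FPKM and fell by 1.96 (SE 0.24, adjusted p = 0.000992). Acaa1b, a peroxisomal thiolase, read 910, 775, 206 and 229 FPKM and fell by 1.95 (SE 0.31, adjusted p = 0.00338). The LPS pair was alike for Vnn1 and Acaa1b, while Fabp1 was lower in LPS 1. Of 37 PPAR-alpha and fatty acid oxidation genes 23 fell and 1, Cyp4a31, rose, with a median of −0.79. Without LPS 1 12 fell, and without untreated 1 or untreated 2 10 or 11. The hormone Fgf21, also a PPAR-alpha target, is in this list and read 13.7, 9.29, 0.374 and 2.05 FPKM (change −2.59, SE 0.34, adjusted p = 0.00151).

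Some bile acid enzymes downstream of the transgene's own step fell. Hsd3b7, which acts on the product of Cyp7a1, read 276, 267, 80.9 and 105 FPKM and fell by 1.55 (SE 0.20, limma adjusted p = 0.00126). Amacr, a racemase of side-chain shortening, read 63.1, 66.8, 29.3 and 36.7 FPKM and fell by 0.96 (SE 0.16, adjusted p = 0.00419). Abcb11, the bile salt export pump of the canalicular membrane, read 63.9, 72.1, 25.6 and 32.8 FPKM and fell by 1.20 (SE 0.17, adjusted p = 0.00179). Slco1b2, an uptake carrier of the sinusoidal membrane, read 423, 566, 87.7 and 210 FPKM and fell by 1.84 (SE 0.38, adjusted p = 0.0113), a call lost without untreated 2 (change −1.63). Of 16 bile acid synthesis genes 9 fell and none rose, and of 15 bile acid transport genes 7 fell and 2 (Slco1a4 and Abcc4) rose. The filter admitted 1 of the 15 transport genes only through LPS, and 1 of the other 14 rose. Synthesis genes that fell numbered 4 without LPS 1, 3 without untreated 1, 4 without untreated 2, 4 with only the 4 transgenic libraries fitted and 5 with libraries scaled to the same total. For transport the same settings gave 3, 3, 2, 3 and 4.

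Conjugating enzymes fell in 14 of 27 cases with none rising. Ugt2b1, a glucuronosyltransferase, read 137, 196, 19.2 and 34.4 FPKM and fell by 2.62 (SE 0.36, limma adjusted p = 0.00165). Gstp1, a glutathione transferase, read 481, 523, 101 and 176 FPKM and fell by 1.90 (SE 0.30, adjusted p = 0.00334). Gclc, the catalytic subunit of the first step of glutathione synthesis, read 73.1, 82.1, 13.1 and 23.2 FPKM and fell by 2.08 (SE 0.26, adjusted p = 0.00117). Without LPS 1 8 conjugating genes fell, without untreated 1 9 and without untreated 2 6. Of 30 NRF2 and glutathione genes 11 fell and 6 rose, with 4 that fell without LPS 1, 2 without untreated 1 and 1 without untreated 2. The filter admitted 1 of the 30 only through LPS, and 5 of the other 29 rose, beside 11.2% of all features not admitted in that way. Hmox1, the haem-degrading oxygenase, rose most in that list, from 17.5 and 14.7 to 189.8 and 160.1 FPKM (change 3.37, SE 0.41, adjusted p = 0.000986). Of 20 drug-metabolizing P450 genes 1 was admitted only through LPS, and 1 of the other 19 rose. Among all features 11% fell and 15.8% rose. Of all 20 P450 genes 5 fell, among them Cyp1a2 (109, 95.0, 20.5 and 38.1 FPKM), and 2 rose (Cyp2b10/Cyp2b9 and Cyp1b1). Without untreated 2 that was 2 and 1.

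Genes with sex-dependent expression, which follow the pulses of growth hormone, moved in both directions in these male livers. Elovl3, a male-biased fatty acid elongase, read 44.6, 82.2, 2.97 and 8.70 FPKM and fell by 3.31 (SE 0.49, limma adjusted p = 0.00259). Of 18 male-biased genes 10 fell and none rose, with a median of −1.51, and 5 fell without LPS 1 and 5 of 17 without untreated 2. Cux2, a female-biased transcription factor, read 0.328, 0.0902, 9.34 and 4.13 FPKM and rose by 2.60 (SE 0.43, adjusted p = 0.00411). It was admitted only through LPS, so it had to be higher there. Of 7 female-biased genes 4 rose, and none did without LPS 1. Among the 6 female-biased genes not admitted only through LPS, 3 rose. Dio1, the thyroid hormone deiodinase, read 86.7, 146, 11.7 and 21.5 FPKM and fell by 2.75 (SE 0.32, adjusted p = 0.000904).

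Falls in mitochondrial and endoplasmic reticulum genes were smaller. Of 46 respiratory chain genes 16 fell, none by 2-fold and with a median of −0.50. None fell without LPS 1, untreated 1 or untreated 2, 3 fell with only the 4 transgenic libraries, and 1 fell with libraries scaled to the same total. Of 33 genes of endoplasmic reticulum folding 11 fell, with a median of −0.48, including the chaperones Hyou1 (39.9, 31.6, 13.1 and 17.5 FPKM) and Calr (334, 347, 119 and 186 FPKM), the latter not called without either untreated library. Without LPS 1, untreated 1 and untreated 2 that count was 2, 1 and 4. The 25 markers of hepatocyte identity had a median of −0.18, which became 0.04 with libraries scaled to the same total and 0.01 with quantile normalization. Of these 25, 2 rose (Tat and Trf) and 3 fell (Foxa2, Cebpa and Cyp2e1), beside 15.8% and 11% of all features. With only the 4 transgenic libraries fitted, 1 rose and 2 fell. The median of the list was −0.08 without LPS 1, −0.05 without untreated 1 and −0.21 without untreated 2.

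Targets of fasting and glucocorticoid signalling rose in transgenic liver, and more so in LPS 1. Ddit4, an inhibitor of the growth kinase mTORC1, read 7.98, 4.52, 295 and 89.3 FPKM and rose by 4.54 (SE 0.58, limma adjusted p = 0.00127). The change was 3.68 without LPS 1 and 5.39 without LPS 2. Igfbp1, a binding protein for insulin-like growth factors that insulin suppresses, read 94.9, 90.6, 3961 and 364.5 FPKM and rose by 3.68 (SE 0.92, adjusted p = 0.0228). LPS 1 was far above LPS 2, the change without LPS 1 was 1.96, and the call was lost without either untreated library (changes 3.72 and 3.65), with only the 4 transgenic libraries and with robust moderation. Sgk1, a serum and glucocorticoid regulated kinase, read 11.3, 10.2, 101 and 35.2 FPKM and rose by 2.38 (SE 0.41, adjusted p = 0.0048), or by 1.63 without LPS 1. Tat, an amino acid catabolizing enzyme and classic glucocorticoid target, read 684, 463, 2908 and 1388 FPKM and rose by 1.83 (SE 0.39, adjusted p = 0.0117), a call lost without LPS 1 (change 1.30) or untreated 2 (change 1.55).

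Of 37 genes in this list 16 rose and 1, Fgf21, fell, with a median of 0.81, 1.12 in LPS 1 and 0.66 in LPS 2. Without LPS 1 8 rose, and without untreated 2 5. In wild-type liver none of the 37 rose and 3 fell, with a median of −0.35. The change was larger in transgenic than in wild-type liver for 35 of the 37 genes, beside 43.9% of all features tested. The starting levels differed too. Both untreated wild-type libraries were above both untreated transgenic libraries for 22 of the 37, beside 14.1% of all features. No gene of the list passed the test of the difference between genotypes, in which Ddit4 had a difference of 4.21 (SE 0.82, limma adjusted p = 0.263) and Igfbp1 one of 5.02 (SE 1.30, adjusted p = 0.381). Ddit4 in wild-type liver read 14.0 and 32.5 FPKM untreated and 22.8 and 32.0 with LPS.

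Stress genes of the p53 and GADD45 groups overlapped with these. Gadd45b, a stress-inducible regulator of MAP kinases, read 3.18, 1.70, 8.46 and 9.62 FPKM and rose by 1.58 (SE 0.21, limma adjusted p = 0.00156). Gadd45g read 24.8, 22.9, 232 and 75.6 FPKM and rose by 2.43 (SE 0.48, adjusted p = 0.00933), or by 1.63 without LPS 1. That call was lost without untreated 2 (change 2.37). Of 25 such genes 10 rose and 1, Perp, fell, and 6 rose without LPS 1 and 4 without untreated 2. The filter admitted 1 of the 25 only through LPS, and 9 of the other 24 rose. Immediate early and heat shock genes differed between the LPS livers, with medians of 0.76 in LPS 1 and −0.46 in LPS 2. Fos read 3.54, 1.47, 12.8 and 1.20 FPKM and Nr4a1 1.94, 1.08, 12.8 and 2.21 FPKM, both highest in LPS 1, and neither passed (adjusted p = 0.541 and 0.132). Other genes set LPS 1 apart from the remaining 3 transgenic libraries with no call. Rab30, a Golgi GTPase, read 12.1, 12.5, 119.8 and 7.13 FPKM, and Enc1, an actin-binding protein, 3.27, 3.83, 63.8 and 3.19 FPKM. Ppp1r3c, which directs a phosphatase to glycogen, read 23.1, 28.3, 0.605 and 31.1 FPKM.

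The 2 LPS livers differed widely in cholesterol synthesis. These genes are switched on together by the transcription factor SREBP-2 when cell cholesterol is low. 2 promoters of the pathway are printed, as examples of genes that moved together between these livers, with capitals for ATTGG, the inverted CCAAT box, on the strand of the gene (RefSeq, GRCm38.p6). Hmgcs1 lies at chr13:119690101-119690350 on the plus strand and Idi1 at chr13:8885356-8885605 on the plus strand, each window being the 250 bases before the RefSeq start.
Hmgcs1: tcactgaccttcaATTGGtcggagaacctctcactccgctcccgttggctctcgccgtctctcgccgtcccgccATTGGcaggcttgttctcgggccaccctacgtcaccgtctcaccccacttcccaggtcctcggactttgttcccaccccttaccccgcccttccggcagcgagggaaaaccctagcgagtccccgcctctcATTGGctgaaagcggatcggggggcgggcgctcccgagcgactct
Idi1: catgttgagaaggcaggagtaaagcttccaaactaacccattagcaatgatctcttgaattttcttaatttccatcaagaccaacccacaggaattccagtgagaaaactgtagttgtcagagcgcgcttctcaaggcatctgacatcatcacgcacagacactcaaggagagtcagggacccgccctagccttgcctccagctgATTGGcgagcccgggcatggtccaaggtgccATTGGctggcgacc
The matches begin 237, 176 and 45 bases before the start in Hmgcs1 and 45 and 14 in Idi1. Of the 23 tested genes of the list 18 had a promoter entry, and 16 of these held ATTGG on either strand, against 33.8% of all windows. Here too a gene counted if any of its windows matched, while the share of all windows counts each window. The SREBP type motif TCACNCCAC, on either strand, was in 1 of the 18 and in 1.05% of all windows. That gene was Hmgcs1, whose match is left in lower case above.

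Hmgcs1, the synthase that makes HMG-CoA, read 368, 336, 24.6 and 268 FPKM, and 15.5 to 18.1 FPKM in the 4 wild-type libraries. Msmo1, a sterol demethylase, read 354.5, 363, 42.7 and 328.5 FPKM, and Sqle, squalene epoxidase, 126, 102, 17.2 and 103 FPKM. LPS 1 was far below the other 3 transgenic libraries for each, and LPS 2 was close to the untreated pair. Idi1, the isomerase of the isoprenoid step, read 16.4, 15.8, 1.66 and 10.9 FPKM.

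None of these passed. Hmgcs1 had a change of −2.09 (SE 0.87, limma adjusted p = 0.118) and Idi1 one of −1.61 (SE 0.58, adjusted p = 0.0768). LPS 1 was at least 2-fold below the untreated mean for 19 of the 23 genes and LPS 2 for none. LPS 1 was below both untreated libraries for 20 of the 23 and LPS 2 for 13, beside 47.1% and 46% of all features. Of the 23 genes, 1 rose and none fell. Without LPS 1 the median change was −0.16 with 1 that rose, and without LPS 2 it was −1.96 with 19 that fell. The gene that rose was Mylip, a ubiquitin ligase induced by sterols, at 8.86, 7.03, 17.4 and 17.2 FPKM (change 1.04, SE 0.15, adjusted p = 0.002). Its level was nearly equal in the LPS pair. Both untreated transgenic libraries were above all 4 wild-type libraries for 19 of the 23 genes, LPS 2 for 19 and LPS 1 for 13. What set the 2 LPS livers apart in these genes was not tested.

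**Figure D4:**
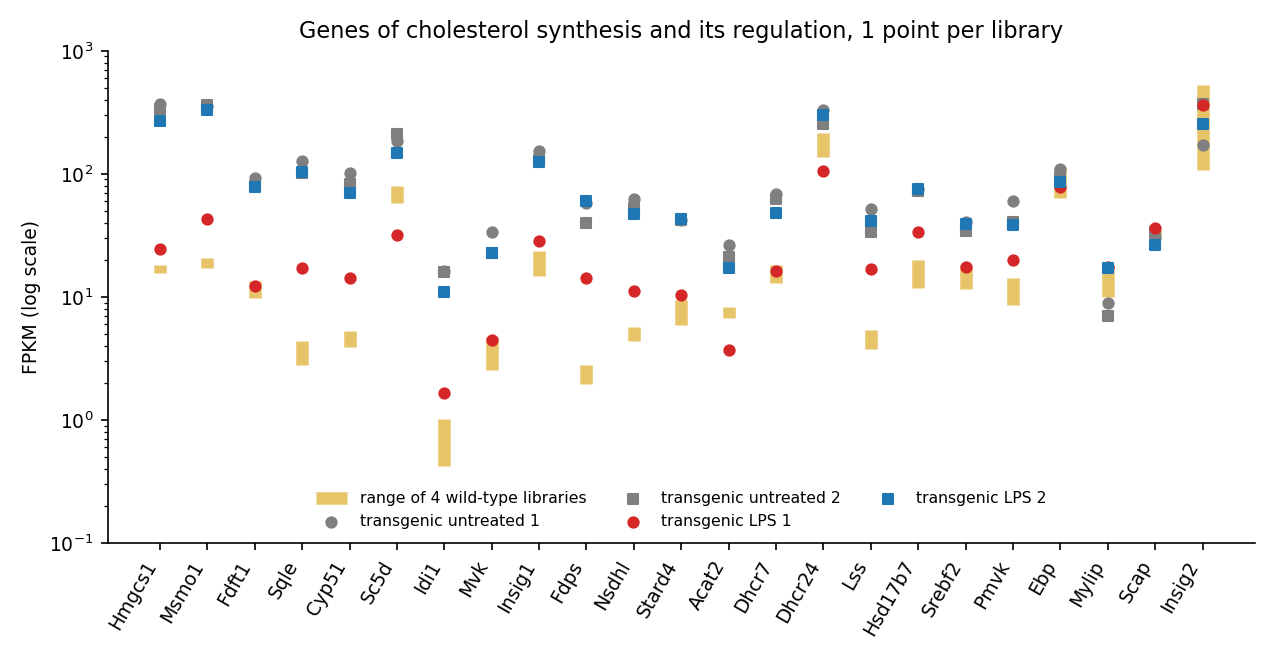
FPKM (log scale, y axis) of 23 genes of cholesterol synthesis and its regulation (x axis) in each of the 4 transgenic libraries, with a bar for the range of the 4 wild-type libraries. LPS replicate 1 lies below the other 3 transgenic libraries for most genes, with Hmgcs1 at 24.6 FPKM, and LPS replicate 2 lies among or near the untreated pair, with Hmgcs1 at 268 FPKM.

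Pancreatic enzyme genes were among the largest falls, and their untreated levels were uneven. Cela2a, an elastase, read 972, 189.7, 25.0 and 0.470 FPKM and had a change of −6.12 (SE 1.70, limma adjusted p = 0.0336). Pnlip, pancreatic lipase, read 391, 100.3, 6.79 and 0.131 FPKM and had a change of −6.07 (SE 1.28, adjusted p = 0.0118). All 21 tested genes of the exocrine pancreas fell, with a median of −5.32, and 3 of them were admitted only through the untreated libraries. Without LPS 2 none passed and the median was −4.02, and none passed without untreated 1. Without LPS 1 8 passed, and without untreated 2 13 of 18. In the wild-type libraries their summed level was 1844 and 109 FPKM untreated and 264 and 102 with LPS, where none passed. Whether pancreatic tissue entered the liver samples was not tested.

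In wild-type liver 2360 features (21.3%) passed, 1749 higher (15.7%) and 611 lower (5.5%). Of these, 1719 passed in both genotypes, 57.7% of the transgenic and 72.8% of the wild-type set, and 1706 had the same sign. Of the other 13, 11 were higher in transgenic and lower in wild-type liver. Fam107a, an actin-associated stress protein, read 3.37, 3.68, 12.2 and 14.1 FPKM in transgenic liver and 11.8, 18.6, 3.44 and 5.34 FPKM in wild-type liver in the same order. It rose by 1.64 in the first and fell by 1.58 in the second, and the difference of 3.22 (SE 0.34) had a limma adjusted p of 0.07. Upp2, a uridine phosphorylase, read 58.2, 57.4, 122 and 131 FPKM against 313, 281, 134 and 176 FPKM in wild-type liver, and Gadd45b did likewise (difference 2.76, SE 0.30, adjusted p = 0.07). The remaining 8 were Ankhd1/Eif4ebp3, Fam134b, Il1r1, Ip6k2, Ipmk, Scara5, Slc25a51 and Trp53inp1. Srebf1, the lipogenic SREBP, and Mup12 went the other way, lower in transgenic and higher in wild-type liver. In transgenic liver Fam107a, Fam134b, Gadd45b, Mup12 and Upp2 kept their calls when any 1 transgenic library was left out, and the other 8 of the 13 lost theirs without LPS 1.

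The test of the difference between genotypes passed 1 feature (0.009%), and 1173 had an unadjusted p under 0.05. This was Mup12, a major urinary protein, at 38.2, 89.9, 0.298 and 1.20 FPKM in transgenic liver (change −5.14, SE 0.40, limma adjusted p = 0.00026) and listed at 0 in both untreated and at 2.76 and 1.66 FPKM in the LPS wild-type libraries. The difference was −6.80 (SE 0.57, adjusted p = 0.0337). Urinary protein genes are near-identical copies among which reads can be divided, so the level of a single copy is uncertain. The number passing ranged from 0 without any 1 wild-type library to 280 without transgenic LPS 2. Among immune and matrix genes the difference was −0.49 (SE 0.85) for Marco, 0.70 (SE 0.38) for S100a8 and −0.17 (SE 0.45) for Col3a1. For Cd79b it was −0.92 (SE 0.26, limma adjusted p = 0.40), and none of these passed. These values do not show that the genotypes respond alike.

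**Figure D5:**
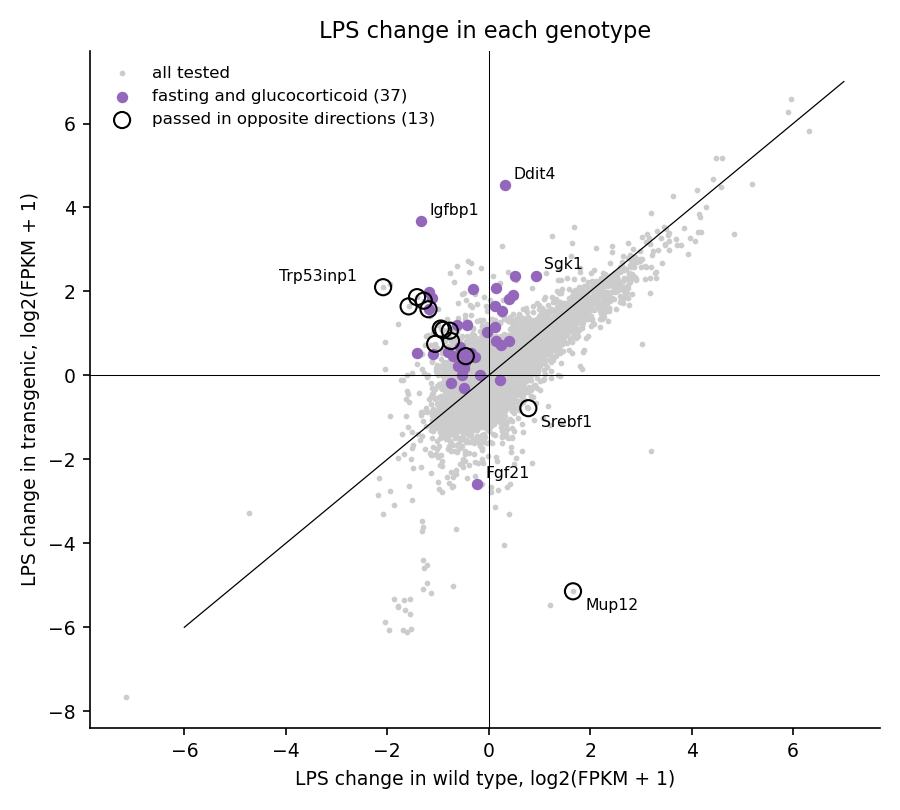
LPS change in wild-type liver (x axis) and in transgenic liver (y axis) for each tested feature, in log2(FPKM + 1), with the diagonal for equal change. Purple points are the 37 fasting and glucocorticoid genes and circles the 13 features that passed in opposite directions. Purple points lie mostly above the diagonal, with Ddit4 at 0.32 and 4.54, and Mup12 lies at 1.66 and −5.14.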

How the data were processed

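RNA of frozen, pulverized liver was made into stranded mRNA libraries, per the labels' protocols. The deposited values are FPKM, computed by the authors. The submitters' processing notes name TopHat2 2.1.0, Bowtie2 2.2.6, Cufflinks, Cuffdiff 2.2.1 and the build mm10; of annotation, filters and scaling the sources used here say nothing. FPKM hide depth: steps between values under 0.03 FPKM put at most 27.9% of ratios in 1 window (tolerance 0.05, log2), so no depth was read and no count test or counting interval was made.

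The table has 24545 rows and 8 matched columns. Of rows that shared a name 1 was kept, and rows with identical values were joined, leaving 17294 features above 0. Values were tested as log2(FPKM + 1) in limma 3.58.1 (R 4.3.3), for the 11105 features that reached 1 FPKM in 2 or more transgenic libraries. The model had all 8 libraries, which share 1 spread, 1 mean per group, empirical Bayes moderation with a mean-variance trend, 2-sided tests and Benjamini-Hochberg adjustment (threshold 0.05). It was tested on simulated data. Samples were grouped by their labels.

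The members, the 49 gene lists and the motifs were chosen with earlier results of these data known. Genes are named by a rule (206 genes: the largest changes, up to 4 per list, and the largest differences between the LPS livers); 20 others, and list members named because few moved, were chosen after their values were seen. Alternatives were other pseudocounts, filters, scalings, fits and each library left out. Alb is listed at 0 and was not read as absent. Some genes are not reported here and were left out of the lists and the named genes, though not of the fit.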

Additional observations from a re-analysis of the deposited data

Results flagged for a closer look

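Mup12 was the only feature whose LPS change differed between the genotypes by the test of that difference in limma. It was lower after LPS in transgenic liver and higher in wild-type liver, with a difference of −6.8 on the log2(FPKM + 1) scale. Transgenic untreated libraries read 38.2 and 89.9 FPKM and the transgenic LPS libraries 0.298 and 1.20, while the wild-type untreated libraries were listed at 0 and the wild-type LPS libraries read 2.76 and 1.66. The groups had 2 libraries each, too few for a check of single outlying samples.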

How the results depend on the processing

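The count of 2977 features became 1767 with a filter of 5 FPKM (814 higher), and 2850 with each library scaled to the same total, where 648 were lower and the share of higher calls went from 58.9% to 77.3%. That share was 69.3% with no filter and 46.1% with the filter of 5 FPKM. With only the 4 transgenic libraries 2393 passed (811 lower, 66.1% higher). Leaving out each library in turn gave 893 to 3601 features, 625 to 1971 higher and 243 to 1630 lower. Of the 893 without transgenic LPS replicate 1, 864 were among the 2977. The features whose change differed between genotypes numbered 1, and 0 with no filter, 3 with robust moderation and 0 to 280 with each library left out. Among 187 named genes that passed, 101 kept the call without each library in turn, 129 kept it in every other alternative, and none changed sign. Without transgenic LPS replicate 1 the change of Spata2l turned from −0.39 to 0.99, and without replicate 2 it was −1.77; it did not pass with all libraries. With 1 library left out of a group, the lone sample was assumed to vary like the other groups. The labels give the same replicate numbers in each group, and deviations of same-numbered samples had a correlation of 0.20, from 0.05 to 0.50 over pairs of groups; the numbers are not stated to mark a shared litter or batch, and 2 pairs a comparison cannot settle it. With a replicate block 3241 features passed and 2 differed between genotypes, and with a replicate block and only the 4 transgenic libraries 2344 passed, 767 of them lower. Depth is unknown, so low values carry no counting error.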

Other observations

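Glucose-handling genes changed in 9 of 30 cases in transgenic liver, 8 higher and 1 lower (Ldha, a subunit of lactate dehydrogenase), a share near the 26.8% of all features. Of the 30, 4 were admitted only through the LPS libraries, Hk3 and Slc2a3 among them, so these had to be higher there. Of the other 26, 4 rose, with a median of −0.04, beside 11.2% that rose among all features not admitted in that way. Without LPS 1 3 of 26 rose and none fell, and without LPS 2 6 rose and 5 fell; none fell without either untreated library. Pkm, the pyruvate kinase of most non-hepatocyte cells, read 4.61, 2.76, 22.9 and 20.5 FPKM and rose by 2.31 (SE 0.26, limma adjusted p = 0.000777). Hk3, a hexokinase of myeloid cells, read 0.891, 0.890, 8.29 and 7.93 FPKM and rose by 2.27 (SE 0.28). Slc2a3, a glucose transporter, read 0.0837, 0.0811, 2.13 and 1.38 FPKM and rose by 1.33 (SE 0.16). Kupffer cell markers, which also rose, moved with the rises, and their part in them was not tested.

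Lysosomal genes rose in 14 of 28 cases and 1, Lipa, fell, with a median of 0.54. The filter admitted 1 of the 28 only through LPS, and 13 of the other 27 rose. Lgmn, an asparaginyl protease, read 35.3, 26.3, 134.8 and 150.5 FPKM and rose by 2.19 (SE 0.21, limma adjusted p = 0.000438). Without LPS 1 7 lysosomal genes rose, and without untreated 2 7. Abcg1 and Soat1, which export and esterify cholesterol, rose from 1.17 and 1.14 to 7.07 and 7.00 FPKM (change 1.90, SE 0.14) and from 1.22 and 0.900 to 6.19 and 5.50 FPKM (change 1.74, SE 0.15), with like levels in the 2 LPS livers that differed so widely in cholesterol synthesis.

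Copies of the major urinary protein family were listed at opposite extremes. Mup17 read 162, 1366, 0.744 and 2.11 FPKM, while the joined entry Mup15/Mup2/Mup7 was listed at 0 in both untreated libraries and at 12.7 and 39.7 FPKM in the LPS libraries. These were chosen after their values were seen, and because the copies are near-identical their reads can be divided among them, so single levels are uncertain.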
